A study of Mus musculus with 8 samples.

Results

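The comparison described here is that of house dust mite extract (HDM) with cat hair extract (Cat) in DC2.4 cells, a dendritic cell line of the mouse strain C57BL/6. It covers every gene whose deposited value was at least 0.5 in 2 or more of the 8 libraries of the series, which is 11455 of 24054 rows. The HDM group is DC2.4 cells given 250 PNU/ml of house dust mite allergen extract for 4 h, and the Cat group is DC2.4 cells given cat hair extract at the same dose for the same time. PNU, protein nitrogen units, measure the protein content of an allergen extract. The series also holds a Grass group, given timothy grass extract at that dose and time, and an untreated group. All cells spent 4 h in RPMI with 0.1% serum before treatment, and each group has 2 libraries, which the series describes as independent. The labels name no vehicle for the untreated cells. DC2.4 is a single established line, so no difference between mice or donors is covered. The contrast of HDM with Cat uses no untreated library in its difference, only in the estimate of the spread.

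Dendritic cells take up allergens, read them through pattern recognition receptors and pass the information on to T cells through cytokines, chemokines and surface molecules. House dust mite extract carries mite proteases, lipid-binding proteins and bacterial products, whereas cat hair extract carries secretoglobin and lipocalin allergens. The first genes to respond to a stimulus are usually immediate early genes, many of them driven by the ERK kinase cascade through serum response factor. A separate sensor, the aryl hydrocarbon receptor (AhR), is a transcription factor that binds small aromatic ligands and switches on detoxifying enzymes together with its own repressor, Ahrr.

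Values are those of the deposited table, a read signal scaled to library depth, close to reads per 1e6 reads. Depth was 41.8 and 31.94 M reads in the HDM libraries, 35.28 and 36.22 M in the Cat libraries, and between 35.81 and 43.32 M (M, 1e6 reads) in the Grass and untreated libraries. Leukocyte and myeloid markers were well covered: Ptprc (CD45) had values of 256 to 330 and Sirpa of 662 to 776 over the 8 libraries. Itgax (CD11c) had 2.57 to 3.29. The MHC class II genes H2-Aa and H2-Ab1, their activator Ciita and the dendritic cell receptor Flt3 had 0 to 12 reads over all 8 libraries together. Among the marker lists of B cells, NK cells, mast cells, epithelium, fibroblasts and erythroid cells, 0 genes reached the filter. In the T cell list 4 genes did, with Cd28 at 25.5 to 40.4. The neutrophil list had 1, Cxcr2 at 44.1 to 66.7, and the endothelial list 1, Pecam1 at 0.88 to 1.1. Replicates differed by more than counting noise, with a chi-square per gene of 2.35 between the HDM libraries and 2.23 between the Cat libraries, where 1 is expected from counting alone. The p-values cover the spread between these 8 libraries and no more. In RNA from whole cultures, fewer cells expressing a gene and less RNA of it per cell cannot be told apart.

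HDM and Cat differed in many transcripts, mostly by little. Of 11455 genes, 889 (7.76%) passed a limma adjusted p of 0.05, 337 of them (2.94%) higher with HDM and 552 (4.82%) lower. The median absolute log2 fold change of these 889 was 0.19, and 719 of them changed by less than 1.25-fold. At least 1.5-fold changes were found in 67 genes (0.585%), 38 of them (0.332%) higher and 29 (0.253%) lower, and 12 and 9 of these reached 2-fold. The median log2 fold change over all tested genes was -0.01. The 2 HDM libraries differed from each other by a median absolute log2 of 0.047 and the 2 Cat libraries by 0.049. Both HDM libraries lay outside the range of the Cat libraries in 51.1% of all tested genes, so such a gap alone is common in this table. The split of calls depended on the scaling. EdgeR with TMM factors on recovered reads gave 378 higher and 395 lower, and upper-quartile scaling 496 higher and 328 lower. Leaving out 1 library of the pair left 438 calls without HDM 1, 484 without HDM 2, 451 without Cat 1 and 474 without Cat 2. A set of 298 of the 889 genes, and 49 of the 67, remained called whichever 1 of the 8 libraries was left out.

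**Figure D1:**
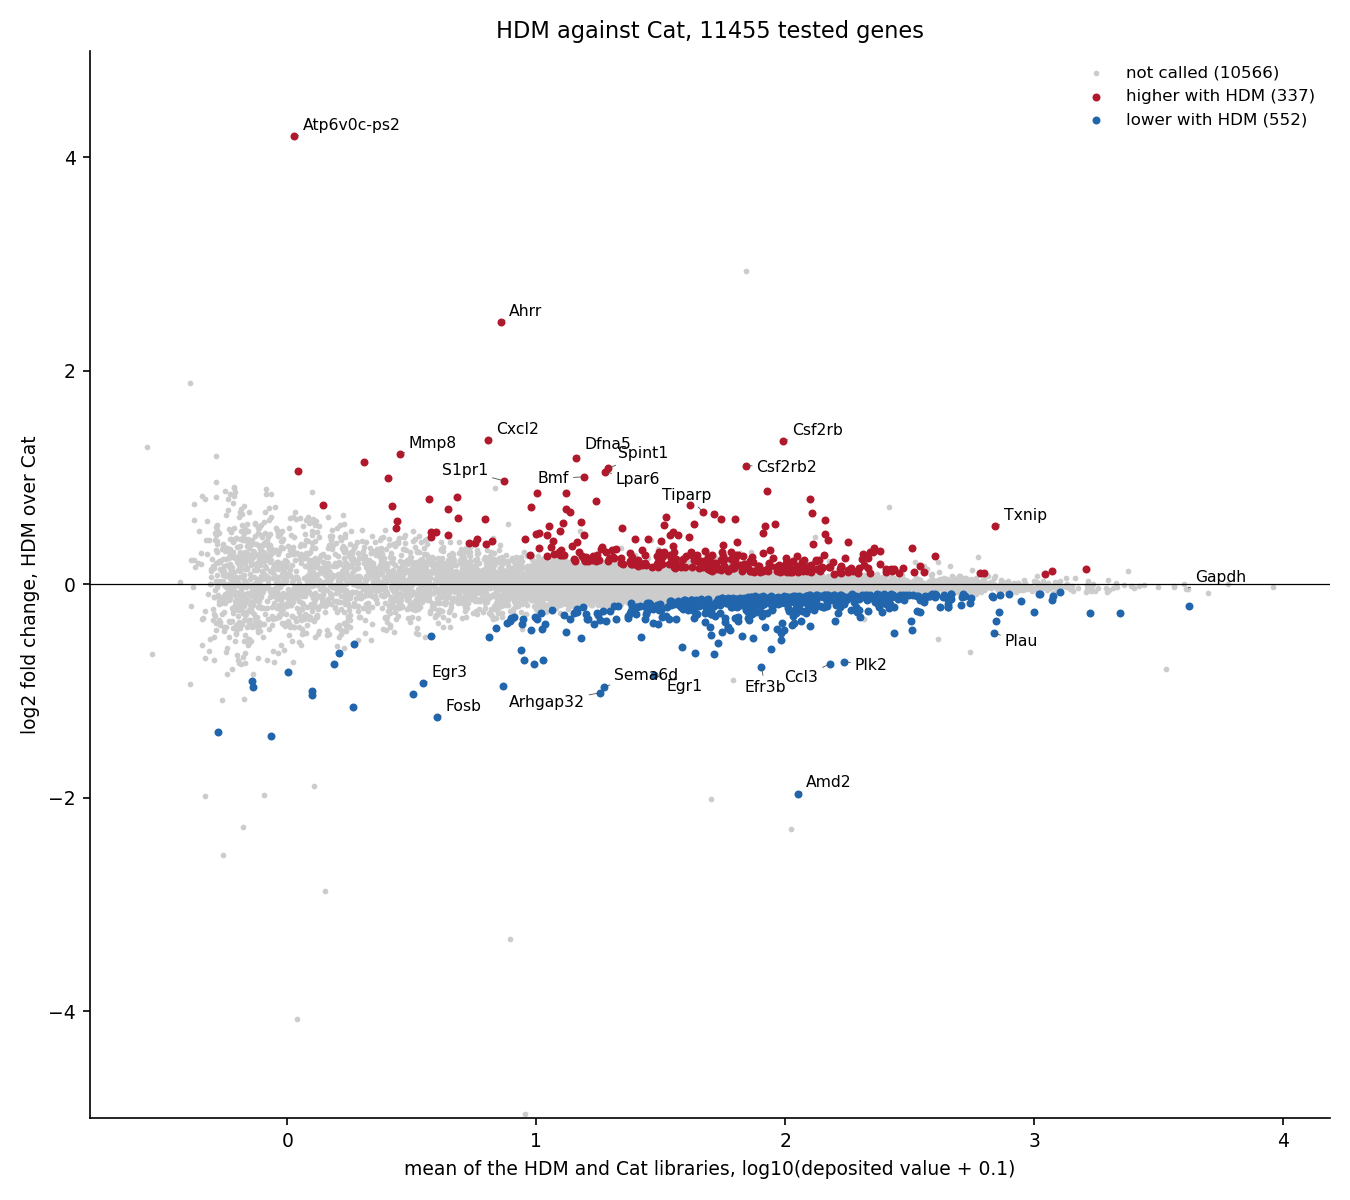
Log2 fold change of HDM over Cat (y axis) against the mean of the 4 libraries of the pair on a log10 axis (deposited value + 0.1), 1 point for each of 11455 genes. Red points are the 337 genes called higher with HDM and blue points the 552 called lower, and most of either colour lie close to 0, with Ahrr and the pseudogene Atp6v0c-ps2 far above and Amd2 far below.

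Among called genes with a mean value of 1 or more, the AhR battery held the one with the largest rise. Ahrr, which encodes the repressor that AhR induces against itself, had values of 12 and 12.1 in the HDM libraries, against 2.21 and 2.01 in the Cat libraries. The Grass and untreated libraries had 1.60 to 2.19, so the HDM libraries stood apart from all 6 others. The difference was 2.46 on the log2 scale (SE 0.14, limma adjusted p = 6e-12), about 5.5-fold. Tiparp, an ADP-ribosyltransferase that AhR induces and that limits its activity, had 58.2 and 57.0 in the HDM libraries and 36.0 and 36.1 in the Cat libraries (log2 0.68, SE 0.05, limma adjusted p = 1e-10). Its values of 37.3 and 37.4 with Grass were close to those with Cat, and the untreated libraries had 41.9 and 46.7.

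The promoters of these 2 genes are shown because the AhR complex is known to bind the core GCGTG of the xenobiotic response element. Each line gives the 250 bases before the transcription start from RefSeq, build GRCm38.p6, for Ahrr on the minus strand of chr13:74292332-74292581 and for Tiparp on the plus strand of chr3:65528197-65528446. Capitals mark GCGTG or, for a match on the opposite strand, CACGC.
Ahrr: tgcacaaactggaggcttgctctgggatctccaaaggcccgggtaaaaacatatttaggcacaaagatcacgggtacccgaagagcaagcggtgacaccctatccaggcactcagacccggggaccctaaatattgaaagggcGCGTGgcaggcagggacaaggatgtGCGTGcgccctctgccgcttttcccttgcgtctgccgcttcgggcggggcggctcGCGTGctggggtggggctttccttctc
Tiparp: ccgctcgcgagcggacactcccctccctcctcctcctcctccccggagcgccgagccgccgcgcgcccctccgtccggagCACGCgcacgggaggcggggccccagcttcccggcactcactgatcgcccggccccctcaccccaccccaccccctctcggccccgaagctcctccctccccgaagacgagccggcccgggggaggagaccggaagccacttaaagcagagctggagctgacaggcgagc
Ahrr has 3 matches and Tiparp 1. On either strand, 28.2% of the 32851 promoter windows of this length in the same table hold the core, as do 30.9% of genes. A match is thus common. None of the matches shown overlaps with the other motifs searched. Of the 6 battery genes that rose, 5 had an entry in the table, and only Ahrr and Tiparp held the core in this window. Among the 12 called genes with the largest rise, 4 of the 11 with an entry held it, the gasdermin gene Dfna5 (Gsdme), Spint1, Cxcl2 and Ahrr. So did 2 of 7 with an entry among the 12 with the largest fall. Of the immediate early genes that fell, 5 of 10 with an entry held it. The core was thus not particular to genes that rose.

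Of 16 tested members of the battery, 6 rose and 1 fell, or 43.8% against 7.76% of all genes, while its tested members had a median log2 fold change of 0.01. Shares above that of all genes were common among the lists examined, which were chosen with earlier results of these data known: 29 of 35 lists had one, and the median share called was 18.2%. The phase 2 enzymes of the UGT1 locus rose together. Ugt1a6b had 15.8 and 18.1 with HDM and 8.69 and 9.93 with Cat (log2 0.86, SE 0.10). Ugt1a6a had 22.8 and 21.0 with HDM and 12.9 and 12.4 with Cat (log2 0.78, SE 0.07), and Ugt1a7c rose by 0.55 (SE 0.04). These glucuronosyltransferases share exons at 1 locus, so the split of reads among them is uncertain, and their summed value was 140.0 and 134 with HDM against 87.3 and 90.7 with Cat. Nqo1, a quinone reductase under AhR and Nrf2 control, had 7.41 and 7.48 with HDM and 6.39 and 4.88 with Cat (log2 0.41, SE 0.12), a call lost without HDM 1, HDM 2 or Cat 2. Fos was the member that fell, a call lost without HDM 2 or Cat 1. The receptor itself, Ahr, had 5.90 and 5.72 with HDM and 5.96 and 5.82 with Cat, and its partner Arnt had a log2 fold change of -0.02 (limma adjusted p = 0.95 for Ahr and 0.87 for Arnt).

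The classical AhR targets of the cytochrome P450 family 1 were below the filter. Cyp1b1 had 9 and 10 reads in the HDM libraries and 0 and 0 reads in the Cat libraries. A single read was seen in the Grass libraries and none in the untreated ones. Against 3 reads over both Cat libraries, the limit that a count of 0 allows, the observed HDM reads were 6.04-fold higher. That fold leaves out the counting error of the HDM reads, so it is not a lower bound. A fit without the filter gave a limma adjusted p of 0.00012. Cyp1a1 had 1 and 0 reads with HDM and 2 and 0 with Cat, so no difference was detectable at this depth. The limit of 3 reads covers counting error in the Cat libraries and no other spread.

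Csf2rb and Csf2rb2, which encode receptor chains for haematopoietic cytokines, rose more than any other members of their list. Csf2rb, the beta common chain through which GM-CSF, IL-3 and IL-5 signal, had 142 and 140.0 in the HDM libraries, against 55.5 and 55.6 in the Cat libraries. The libraries of each extract lay close together, and the extracts differed 2.54-fold (log2 1.34, SE 0.04, limma adjusted p = 3e-19, the smallest of all tested genes). Csf2rb2, the mouse paralogue that serves IL-3 alone, had 96.4 and 93.6 with HDM and 44.3 and 43.4 with Cat (log2 1.11, SE 0.05, limma adjusted p = 2.1e-10). The paralogues are nearly identical in sequence and reads may be split between them. Their summed value was 238 and 234 with HDM, against 99.8 and 99.0 with Cat. Grass libraries lay between the extracts at 67.9 and 68.7 for Csf2rb, nearer to Cat, and untreated libraries had 53.1 and 54.8.

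The ligand-specific chain Csf2ra, which pairs with Csf2rb to bind GM-CSF, had 44.2 and 40.5 with HDM and 42.8 and 45.4 with Cat (log2 -0.06, SE 0.05, limma adjusted p = 0.58). Csf1, the macrophage growth factor, rose to 269 and 261 with HDM against 213 and 215 with Cat (log2 0.31, SE 0.03). Bcl2l1, the anti-apoptotic gene for BCL-XL, fell to 100 and 101 against 124 and 118 (log2 -0.27, SE 0.04). In the whole list of beta common receptors, their ligands and their signalling partners, 3 of 16 tested members rose and 1 fell, 25.0% against 7.76% of all genes, and all 4 remained called whichever 1 library was left out. The kinase Jak2 (log2 -0.01), the factors Stat5a (-0.08) and Stat5b (-0.03) and the feedback gene Cish (0.00) were not called. The ligand gene Csf2 had 5 and 6 reads with HDM and 1 and 3 with Cat, below the filter.

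Il7r and Il4ra were higher with HDM than with Cat as well. Il7r, the receptor chain for IL-7 and TSLP, had 11.8 and 11.6 with HDM and 6.28 and 7.89 with Cat (log2 0.73, SE 0.09). The untreated libraries had 9.66 and 9.86 for Il7r. From these, Cat differed by -0.47 on the log2 scale (limma adjusted p = 0.0011) and HDM by 0.26 (limma adjusted p = 0.039). More of the gap in Il7r thus lay in the lower level with Cat. Il4ra, the chain shared by the IL-4 and IL-13 receptors, had 15.1 and 15.3 with HDM and 10.8 and 9.60 with Cat (log2 0.57, SE 0.08). Il7r and Il4ra were the 2 called members among 9 tested genes of the type 2 and alarmin list, 22.2% against 7.76% of all genes. Crlf2, the other chain of the TSLP receptor (log2 -0.07), and Il1rl1, the IL-33 receptor (log2 -0.14), were not called (limma adjusted p = 0.74 and 0.11). For Il4ra the Grass libraries, at 15 in both, stood with HDM. Il12rb1, a chain of the IL-12 and IL-23 receptors, rose by 0.82 (SE 0.15), and Il15, a cytokine for NK and memory T cells, by 0.80 (SE 0.14). Cd28, known as a T cell costimulatory receptor, had 40.4 and 39.9 with HDM and 26.3 and 25.5 with Cat (log2 0.63, SE 0.05). Of the T cell marker list 4 genes were tested and Cd28 was the only one called (25.0%, against 7.76% of all genes). Il12rb1, Il15 and further genes outside the naming rule are named here after their values were seen.

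**Figure D2:**
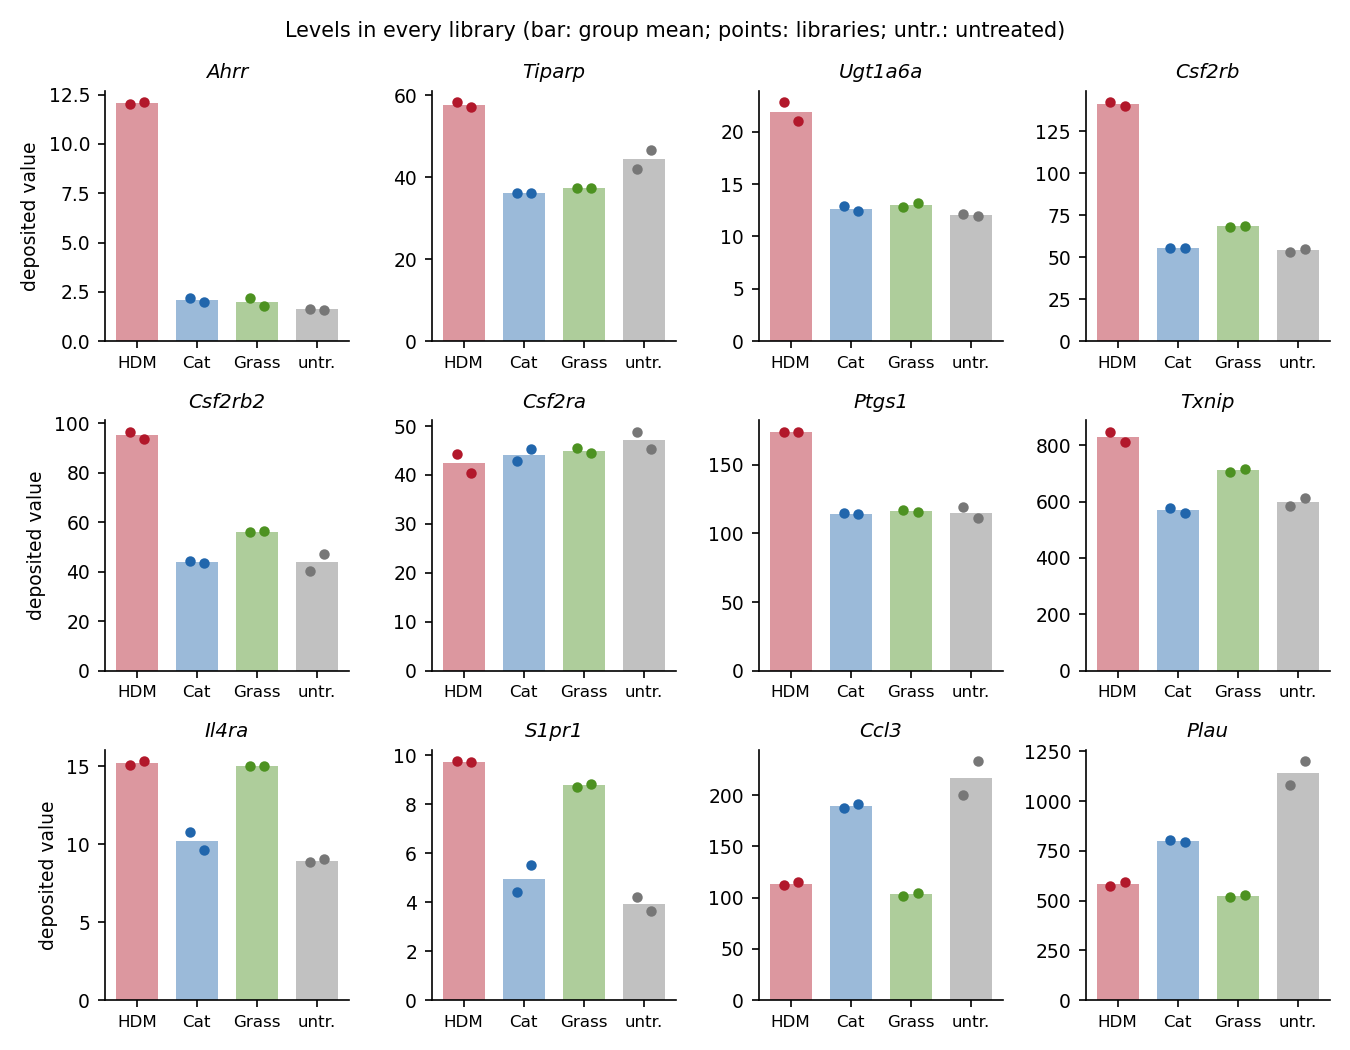
Deposited value (y axis, linear from 0) of 12 genes in each group, with bars for group means and 1 point for each of the 2 libraries. For Ahrr, Tiparp, Ugt1a6a, Csf2rb, Csf2rb2 and Ptgs1 the HDM libraries stand above the other 6, while for Il4ra, S1pr1, Ccl3 and Plau the Grass libraries lie close to the HDM ones, and Csf2ra overlaps between the groups.

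Of 15 tested chemokines 3 rose and 2 fell, 33.3% against 7.76% of all genes, and 10 were not called. Cxcl2, a neutrophil attractant of the CXC family, had 9.74 and 8.37 in the HDM libraries and 3.55 and 3.39 in the Cat libraries (log2 1.35, SE 0.15, limma adjusted p = 1.4e-06). Cxcl3, of the same family, had 1.27 and 1.51 with HDM and 0.682 and 0.552 with Cat (log2 1.06, SE 0.27, limma adjusted p = 0.015), with 49 reads in the lower HDM library and 20 in the lower Cat library, and its call was lost without any 1 HDM or Cat library. The falls were Ccl3 and Ccl4, which attract monocytes and T cells. Ccl3 had 112 and 115 with HDM and 188 and 191 with Cat (log2 -0.74, SE 0.07), with the Grass libraries at 102 and 105 and the untreated ones at 200 and 233. Ccl4 had 39.7 and 40.6 with HDM and 62.5 and 63.7 with Cat (log2 -0.65, SE 0.12, limma adjusted p = 0.039), a call lost without any 1 HDM or Cat library. Cxcl2 and Ccl3 were the 2 calls that remained whichever 1 library was left out. The count of rises was 1 without HDM 1, Cat 1 or Cat 2, since the platelet chemokine gene Pf4 (log2 0.12) and Cxcl3 dropped out. Cxcl10 had 15.2 and 13.4 with HDM and 12.8 and 13.8 with Cat and was not called, and Cxcl1 had 0 reads in all 8 libraries.

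The promoters of Cxcl2 and Cxcl3 are shown because both genes, which lie near each other, rose. The windows, from RefSeq on build GRCm38.p6, lie on the plus strand at chr5:90903649-90903898 for Cxcl2 and chr5:90785851-90786100 for Cxcl3. Capitals mark the kappaB site, the motif of NF-kB, which was matched once on each strand, with the 2 matches 1 base apart.
Cxcl2: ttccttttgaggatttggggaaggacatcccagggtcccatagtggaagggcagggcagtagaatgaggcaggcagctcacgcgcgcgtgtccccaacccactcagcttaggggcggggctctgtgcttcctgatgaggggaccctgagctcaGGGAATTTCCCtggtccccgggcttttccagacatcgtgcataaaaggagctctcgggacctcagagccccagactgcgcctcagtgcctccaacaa
Cxcl3: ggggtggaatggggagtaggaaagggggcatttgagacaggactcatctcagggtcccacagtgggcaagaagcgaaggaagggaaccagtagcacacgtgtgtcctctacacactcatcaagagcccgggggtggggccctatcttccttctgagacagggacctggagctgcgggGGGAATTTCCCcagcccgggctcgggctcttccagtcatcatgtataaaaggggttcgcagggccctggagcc
In both windows the matches together span the same 11 letters. On either strand, 7.25% of all windows in the table hold a kappaB site, as do 8.23% of genes. Among the 12 called genes with the largest rise, 4 of 11 with an entry had one, Ahrr, Cxcl2, Cxcl3 and Rhov. So did 3 of 7 with an entry among the 12 with the largest fall. Of the immediate early genes that fell, 5 of 10 with an entry had one. The site was thus not particular to genes that rose. The matches in the windows shown overlap with no other motif.

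Tnf, a central inflammatory cytokine, had 27.6 and 25.9 with HDM and 33.7 and 35.7 with Cat (log2 -0.37, SE 0.06), and Hbegf, a growth factor for the EGF receptor, had 4.55 and 5.23 with HDM and 8.92 and 10.2 with Cat (log2 -0.95, SE 0.11). These were the 2 called members of 14 tested cytokines (14.3% against 7.76% of all genes), and both fell. Il6 had 0 to 2 reads per library and Il1b 0 to 5, so neither could be compared. Of 31 tested NF-kB factors, feedback genes and targets, 6 rose and 1 fell (22.6% called), with a median log2 fold change of 0.06. Birc3, an inhibitor of apoptosis, had 42.0 and 40.3 with HDM and 31.3 and 27.5 with Cat (log2 0.49, SE 0.06), and Tnfaip2 rose by 0.24 (SE 0.03). Those 2 and the falling Ptgs2, the inducible cyclooxygenase (log2 -0.25, SE 0.04), remained called whichever 1 library was left out, and the number of rises was 3 without HDM 1. The subunits Nfkb1 (log2 -0.02), Rela (0.05) and Rel (-0.09) were not called.

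Pattern recognition receptors and adaptors rose in 6 of 29 tested members and fell in 3, 31.0% called against 7.76% of all genes. Tlr2, a receptor for bacterial lipoproteins, had 74.6 and 72.3 with HDM and 60.6 and 61.7 with Cat (log2 0.26, SE 0.04). Tlr4, the receptor for endotoxin, had 71.5 and 69.5 with HDM and 60.0 and 56.7 with Cat (log2 0.27, SE 0.04). Tlr6 rose by 0.47 (SE 0.09), Tlr7 by 0.29 (SE 0.05) and the lectin gene Clec4e by 0.30 (SE 0.05). These 5 remained called without any 1 library, whereas the number of falls was 1 without HDM 1 or Cat 1 and 0 without HDM 2 or Cat 2. Clec7a, the receptor for fungal glucans, had 5.85 and 5.75 with HDM and 7.47 and 8.06 with Cat (log2 -0.41, SE 0.10), a call lost without HDM 2 or Cat 2.

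Immediate early genes were the largest group of falls. Of 30 tested members, 16 fell and 4 rose, or 66.7% called against 7.76% of all genes. Their median log2 fold change was -0.16, against -0.01 for all genes. Egr1, a zinc finger factor induced by growth factors within minutes, had 21.0 and 21.1 in the HDM libraries, against 37.9 and 38.0 in the Cat libraries (log2 -0.85, SE 0.05, limma adjusted p = 1.4e-11). Grass libraries were lower still at 18.6 and 17.4, and untreated libraries had 51.1 and 55.1. Its relatives Egr2 and Egr3 fell as well. Egr2 had 2.17 and 1.85 with HDM against 4.03 and 4.33 with Cat (log2 -1.03, SE 0.16). Egr3 had 2.15 and 2.49 against 4.52 and 4.47 (log2 -0.93, SE 0.14). The untreated libraries lay above those with Cat, at 5.22 and 6.74 for Egr2 and 6.43 and 6.48 for Egr3. Nab2, a co-repressor that Egr factors induce and that dampens them, had 43.4 and 43.9 with HDM and 63.8 and 63.7 with Cat (log2 -0.55, SE 0.04).

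The Fos family was uneven. Fosb, an AP-1 subunit, had 2.24 and 2.28 with HDM and 5.54 and 5.46 with Cat (log2 -1.25, SE 0.13, limma adjusted p = 1.4e-07), whereas Fosl1 fell by 0.32 (SE 0.05) and Fos by 0.28 (SE 0.06). Among the Jun genes Jun had a log2 fold change of 0.02 and Junb of -0.03, and neither was called. Zfp36, which encodes the mRNA decay factor tristetraprolin, had 47.7 and 46.9 with HDM and 62.6 and 66.1 with Cat (log2 -0.44, SE 0.04). Srf itself, the serum response factor, had 57.0 and 56.8 with HDM and 69.9 and 71.3 with Cat (log2 -0.31, SE 0.04). The 4 members that rose were Ier3 (log2 0.48, SE 0.04), Klf6 (0.30, SE 0.03), Klf10 (0.30, SE 0.05) and Atf3 (0.15, SE 0.03). The number of falls was 9 without HDM 2, 10 without Cat 1, 10 with DESeq2 and 8 with limma without its trend and robust settings. The 9 genes Fosb, Fosl1, Egr1, Egr2, Egr3, Zfp36, Srf, Phlda1 and Nab2 remained called whichever 1 library was left out.

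Of 22 tested genes that feed back on ERK signalling, 9 fell, 0 rose and 13 were not called, or 40.9% called against 7.76% of all genes. There were 0 higher at an unadjusted p under 0.05, 0 higher by edgeR and 0 by DESeq2. Their median log2 fold change was -0.15. Spry4, a Sprouty inhibitor of receptor tyrosine kinase signalling, had 6.72 and 7.66 with HDM and 11.9 and 12.2 with Cat (log2 -0.74, SE 0.09). Dusp7, a phosphatase of ERK, had 77.4 and 79.7 with HDM and 115 and 112 with Cat (log2 -0.53, SE 0.04). Rgs2, a regulator of G proteins, fell by 0.42 (SE 0.04), Rasa1, a GTPase activator of Ras, by 0.34 (SE 0.03), Spred1 by 0.26 (SE 0.03) and Dusp4 by 0.21 (SE 0.03). These 6 remained called whichever 1 library was left out. Dusp6, the cytoplasmic ERK phosphatase, had 166 and 161 with HDM and 178 and 175 with Cat and was not called (log2 -0.11, limma adjusted p = 0.39), nor was Dusp1 (log2 -0.06). Plk2, a kinase gene that serum induces, lay outside both lists and fell to 128 and 133 with HDM against 220.0 and 210.0 with Cat (log2 -0.72, SE 0.05).

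**Figure D3:**
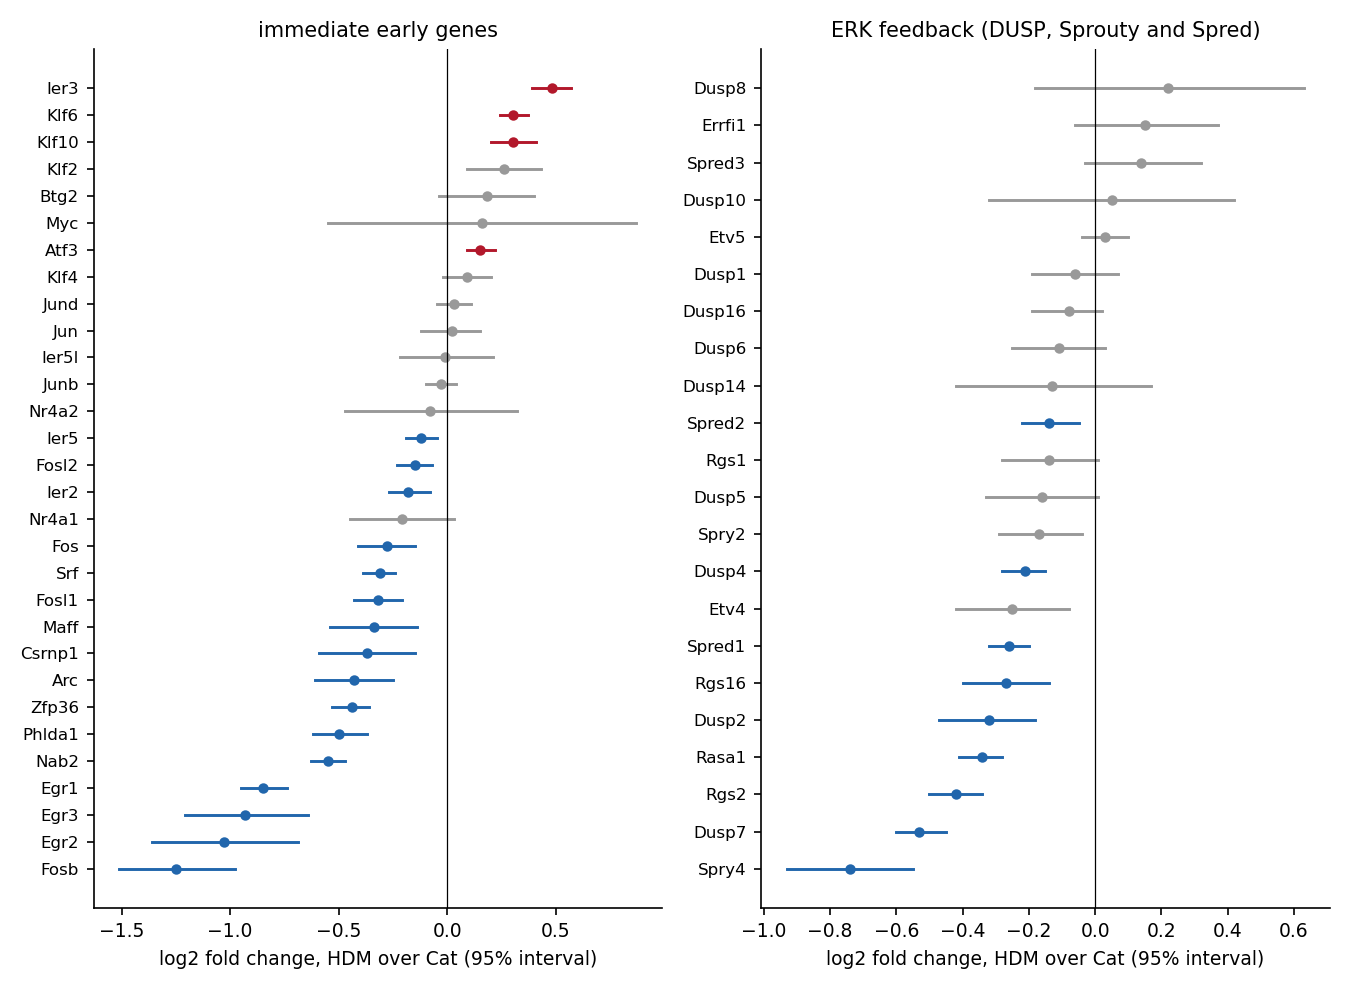
Log2 fold change of HDM over Cat (x axis) with its 95% interval for the 30 tested immediate early genes (left) and the 22 tested ERK feedback genes (right). Red marks genes called higher, blue genes called lower and grey genes not called. On the left 16 blue intervals reach down to -1.25 for Fosb and 4 red ones up to 0.48 for Ier3, and on the right 9 are blue and 0 red.

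Serum response factor is known to bind the CArG box, and the windows of Egr2, Zfp36 and Srf are shown because they hold one. They were chosen after their values were seen. On build GRCm38.p6, from RefSeq, the 250 bases before the start lie at chr10:67537316-67537565 on the plus strand for Egr2, at chr7:28379229-28379478 on the minus strand for Zfp36 and at chr17:46556163-46556412 on the minus strand for Srf. Capitals mark the CArG boxes.
Egr2: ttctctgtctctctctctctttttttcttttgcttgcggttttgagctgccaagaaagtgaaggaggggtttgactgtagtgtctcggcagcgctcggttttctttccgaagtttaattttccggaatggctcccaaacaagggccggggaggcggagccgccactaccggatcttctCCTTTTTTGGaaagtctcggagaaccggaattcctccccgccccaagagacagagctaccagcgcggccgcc
Zfp36: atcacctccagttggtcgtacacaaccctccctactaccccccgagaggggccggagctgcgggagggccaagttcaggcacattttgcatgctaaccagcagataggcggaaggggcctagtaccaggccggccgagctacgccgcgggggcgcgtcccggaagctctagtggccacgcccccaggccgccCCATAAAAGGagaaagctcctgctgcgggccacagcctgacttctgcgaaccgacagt
Srf: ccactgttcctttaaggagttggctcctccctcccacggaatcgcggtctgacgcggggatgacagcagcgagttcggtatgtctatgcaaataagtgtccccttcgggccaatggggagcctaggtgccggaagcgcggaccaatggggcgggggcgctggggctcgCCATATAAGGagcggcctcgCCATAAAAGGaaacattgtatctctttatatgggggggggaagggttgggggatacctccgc
The Srf window holds 2 boxes and the other windows 1 each. Of the 16 immediate early genes that fell, 10 had an entry in the table and 3 of these held a CArG box. Egr1 and Egr3 are among those without an entry. Of all windows 1.47% hold a box, and of all genes with an entry 1.62%. With the ERK feedback genes that fell added, it was the same 3 genes of 17 with an entry. Among the 12 called genes with the largest rise, 0 of 11 with an entry held a box. Among the 12 with the largest fall, 1 of 7 did. Immediate early genes that rose or were not called were not counted, so a link of the box to falling was not tested. Egr2 has 5 entries, of which 1 is shown. The boxes overlap with no other motif searched.

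The 24 called genes with the largest changes included effectors of several kinds. Mmp8, the neutrophil collagenase, had 3.68 and 4.06 with HDM and 1.45 and 1.77 with Cat (log2 1.22, SE 0.20). Dfna5 (Gsdme), a gasdermin that caspases can turn into a pore, had 20 and 19.8 with HDM and 8.66 and 8.69 with Cat (log2 1.19, SE 0.08). Spint1, an inhibitor of serine proteases at the cell surface, had 26.8 and 25.7 with HDM and 11.7 and 12.9 with Cat (log2 1.09, SE 0.07). In these 3 genes the groups were far apart and the libraries of each group close together.

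Lpar6, a receptor for lysophosphatidic acid, had 26.0 and 25.1 with HDM and 11.9 and 12.6 with Cat (log2 1.05, SE 0.07). Bmf, a pro-apoptotic BH3-only gene, had 20.1 and 21.2 with HDM and 10.1 and 10.3 with Cat (log2 1.01, SE 0.08). Rhov, an atypical small GTPase, rose by 0.99 (SE 0.17). Neurl3, a ubiquitin ligase gene named after its values were seen, had 111 and 108 with HDM and 61.1 and 57.8 with Cat (log2 0.88, SE 0.04, limma adjusted p = 1.5e-14), the second smallest adjusted p. Pet117, a factor for cytochrome c oxidase assembly, rose by 1.15 (SE 0.23), a call lost without Cat 1, whose value of 0.824 lay well under the 1.57 of Cat 2.

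Among the falls, Arhgap32, a GTPase-activating protein, had 11.0 and 12.7 with HDM and 24.2 and 23.9 with Cat (log2 -1.02, SE 0.07). Sema6d, a semaphorin guidance molecule, had 12.6 and 12.5 with HDM and 24.1 and 24.9 with Cat (log2 -0.96, SE 0.06). Efr3b, a membrane anchor of a phosphatidylinositol kinase complex, had 57.3 and 60.6 with HDM and 103 and 99.0 with Cat (log2 -0.77, SE 0.04). Rnase6, an antimicrobial ribonuclease, had 1.23 and 0.861 with HDM and 2.41 and 2.4 with Cat (log2 -1.15, SE 0.19). For each of these 4 falls the Grass libraries lay with the HDM ones. The histone genes Hist1h1e (log2 -1.03, SE 0.23) and Hist1h3d (log2 -1.0, SE 0.22) fell at 24 to 26 reads in their lowest HDM libraries, and both calls were lost without HDM 1 or Cat 1. Replication-dependent histone mRNAs largely lack a poly(A) tail and have near-identical copies, so their counts from mRNA-enriched libraries are uncertain.

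**Figure D4:**
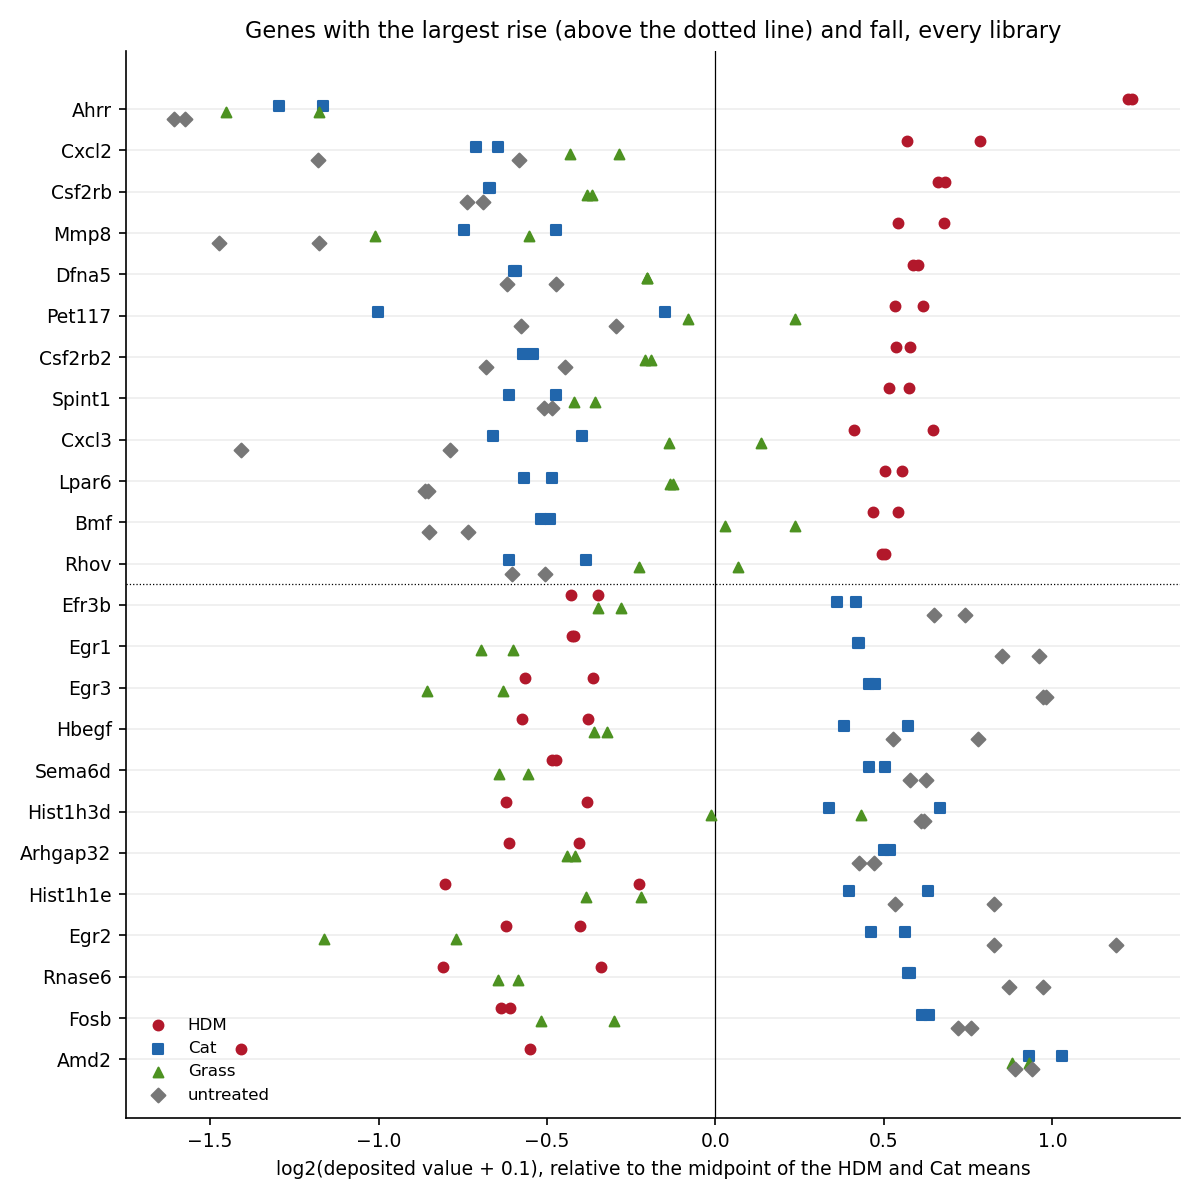
The 12 called genes with the largest rise (above the dotted line) and the 12 with the largest fall. Every library is placed by log2(value + 0.1) relative to the midpoint of the HDM and Cat means (x axis). Red circles are HDM, blue squares Cat, green triangles Grass and grey diamonds untreated. For most rises the Grass and untreated libraries lie on the Cat side, and for most falls the Grass libraries lie with HDM and the untreated ones with Cat.

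Amd2, the gene with the largest fall in this ranking, has a near-identical copy. It had 61.1 and 33.7 with HDM and 171 and 183 with Cat (log2 -1.96, SE 0.30, limma adjusted p = 0.037), and its call was lost without any 1 Cat, Grass or untreated library. The copy Amd1, the polyamine enzyme S-adenosylmethionine decarboxylase, had 103 and 137 with HDM and 29.4 and 8.11 with Cat. The sum of both was 164 and 170.0 with HDM and 201 and 191 with Cat, a log2 difference of -0.23. The pseudogene Atp6v0c-ps2, outside this ranking because its mean value was below 1, had 1.06 and 2.80 with HDM and 0 and 0 with Cat, while its sum with the parent gene Atp6v0c differed by 0.03 on the log2 scale. The assignment of reads between such copies is uncertain. Both genes remain in the counts of calls given here and in the counts of positions below. Within the polyamine list Smox, spermine oxidase, is free of this problem and rose to 162 and 153 with HDM against 98.2 and 100 with Cat (log2 0.67, SE 0.04).

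Of 19 tested lysophospholipid and prostanoid genes, 3 rose and 4 fell, 36.8% called against 7.76% of all genes. Beside Lpar6, S1pr1, a sphingosine-1-phosphate receptor that guides leukocyte exit from tissue, had 9.74 and 9.72 with HDM and 4.40 and 5.52 with Cat (log2 0.97, SE 0.11). Ptgs1, the constitutive cyclooxygenase, had 174 and 174 with HDM and 115 and 114 with Cat (log2 0.60, SE 0.03, limma adjusted p = 2.2e-12). Ptgs2, the inducible enzyme, had 94.5 and 94.4 with HDM and 112 and 113 with Cat. The cyclooxygenase genes thus moved in opposite directions, and the prostaglandin E2 receptor Ptger4 had 7.17 and 6.37 with HDM and 10.1 and 10.7 with Cat (log2 -0.61, SE 0.09).

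Urokinase and its receptor fell. Plau, the plasminogen activator urokinase, had 572 and 592 with HDM and 806 and 795 with Cat (log2 -0.46, SE 0.04). Its receptor Plaur had 61.9 and 60.1 with HDM and 85.8 and 87.5 with Cat (log2 -0.50, SE 0.04). With Mmp8 as the only rise, 1 of 18 tested protease genes rose and 3 fell, Plau and Plaur among them. This was 22.2% called against 7.76% of all genes. Of 22 tested semaphorin, plexin and guidance genes, 4 fell and 0 rose, 18.2% called against 7.76% of all genes. That share equals the median over the 35 lists examined. At an unadjusted p under 0.05, 1 was higher, and edgeR and DESeq2 called 0 higher after adjustment. EdgeR and DESeq2 each called 2 lower, and Sema6d alone remained called whichever 1 library was left out.

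FOXO factors and targets had 7 of 23 tested members higher and 3 lower, 43.5% called against 7.76% of all genes. Txnip, the thioredoxin-interacting arrestin that limits glucose uptake, had 847 and 812 with HDM and 578 and 559 with Cat (log2 0.54, SE 0.03, limma adjusted p = 7.3e-13). Its relatives Arrdc3 (log2 0.46, SE 0.05) and Arrdc4 (0.40, SE 0.07) rose too, as did Il7r and S1pr1. Cited2, a transcriptional co-regulator, had 141 and 138 with HDM and 175 and 180.0 with Cat (log2 -0.35, SE 0.03), and Bcl6 (log2 -0.20, SE 0.04) and Trib2 (-0.27, SE 0.05) fell. These 8 genes remained called whichever 1 library was left out. The factors themselves, Foxo1 (log2 -0.12), Foxo3 (0.07) and Foxo4 (0.08), were not called.

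Of 30 tested genes of the p53 and apoptosis list, 3 rose and 2 fell, 16.7% called against 7.76% of all genes. Beside Bmf, Bbc3, the pro-apoptotic gene for PUMA, had 53.5 and 52.1 with HDM and 41.7 and 43.5 with Cat (log2 0.31, SE 0.04), and the falls were Bcl2l1 and Plk2. Glycolysis and hypoxia genes had 5 rises and 1 fall in 38 tested (15.8%), led by Ndrg1 (log2 0.28, SE 0.03), while hexokinase Hk2 fell by 0.14 (SE 0.03). The number of rises was 3 without HDM 1. Of 34 tested genes of the unfolded protein and integrated stress responses, 4 rose and 4 fell (23.5%), with the oxidase Ero1l at 453 and 419 with HDM and 363 and 362 with Cat (log2 0.26, SE 0.03). None of those 4 falls remained called whichever 1 library was left out.

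Of 32 tested G1 and E2F genes, 5 fell and 1 rose, 18.8% called against 7.76% of all genes. Their log2 fold changes lay between -0.22 and 0.17. Cyclin D1, Ccnd1, had 424 and 411 with HDM and 483 and 486 with Cat (log2 -0.22, SE 0.04). The number of falls in this list was 2 or 3 without any 1 library of the pair, and 3 with TMM scaling. Of 37 tested mitosis genes, 5 fell and 2 rose (18.9% called), but 0 fell without HDM 1 and 0 without Cat 1. The linker histone gene H1f0 had 129 and 135 with HDM and 154 and 151 with Cat (log2 -0.21, SE 0.03). The core clock gene Per1 had 42.4 and 43.6 with HDM and 58.5 and 55.1 with Cat (log2 -0.40, SE 0.04). It was the only one called of 15 clock genes tested (6.67%), a share below the 7.76% of all genes.

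Of 62 tested interferon-stimulated genes 1 rose and 0 fell, 1.61% called against 7.76%, with a median log2 fold change of -0.02. With limma 6 were higher and 3 lower at an unadjusted p under 0.05. EdgeR called 2 higher and DESeq2 1, and both called 0 lower. The gene that limma called higher was Irf1, an interferon regulatory factor. It had 40.0 and 39.1 with HDM and 31.3 and 30.4 with Cat (log2 0.36, SE 0.05). Isg15 had 30.1 and 24.2 with HDM and 27.4 and 27.3 with Cat, with overlapping groups and a log2 difference of -0.02 (SE 0.18).

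Of 63 cytoplasmic ribosomal protein genes, limma called 0 in either direction, with 2 higher and 2 lower at an unadjusted p under 0.05, and edgeR and DESeq2 called 0. Of 30 tested Nrf2 genes 3 rose and 2 fell, 16.7% called against 7.76% of all genes. None of those calls remained whichever 1 library was left out. Hmox1, heme oxygenase, had 557 and 541 with HDM and 556 and 569 with Cat (log2 -0.03, SE 0.05), against 805 and 851 with Grass. Among 14 housekeeping genes Gapdh had a log2 fold change of -0.04 (SE 0.02, limma adjusted p = 0.36). Actb, cytoskeletal actin and itself a target of serum response factor, had 3850 and 3950 with HDM and 4480 and 4510 with Cat (log2 -0.20, SE 0.03).

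**Figure D5:**
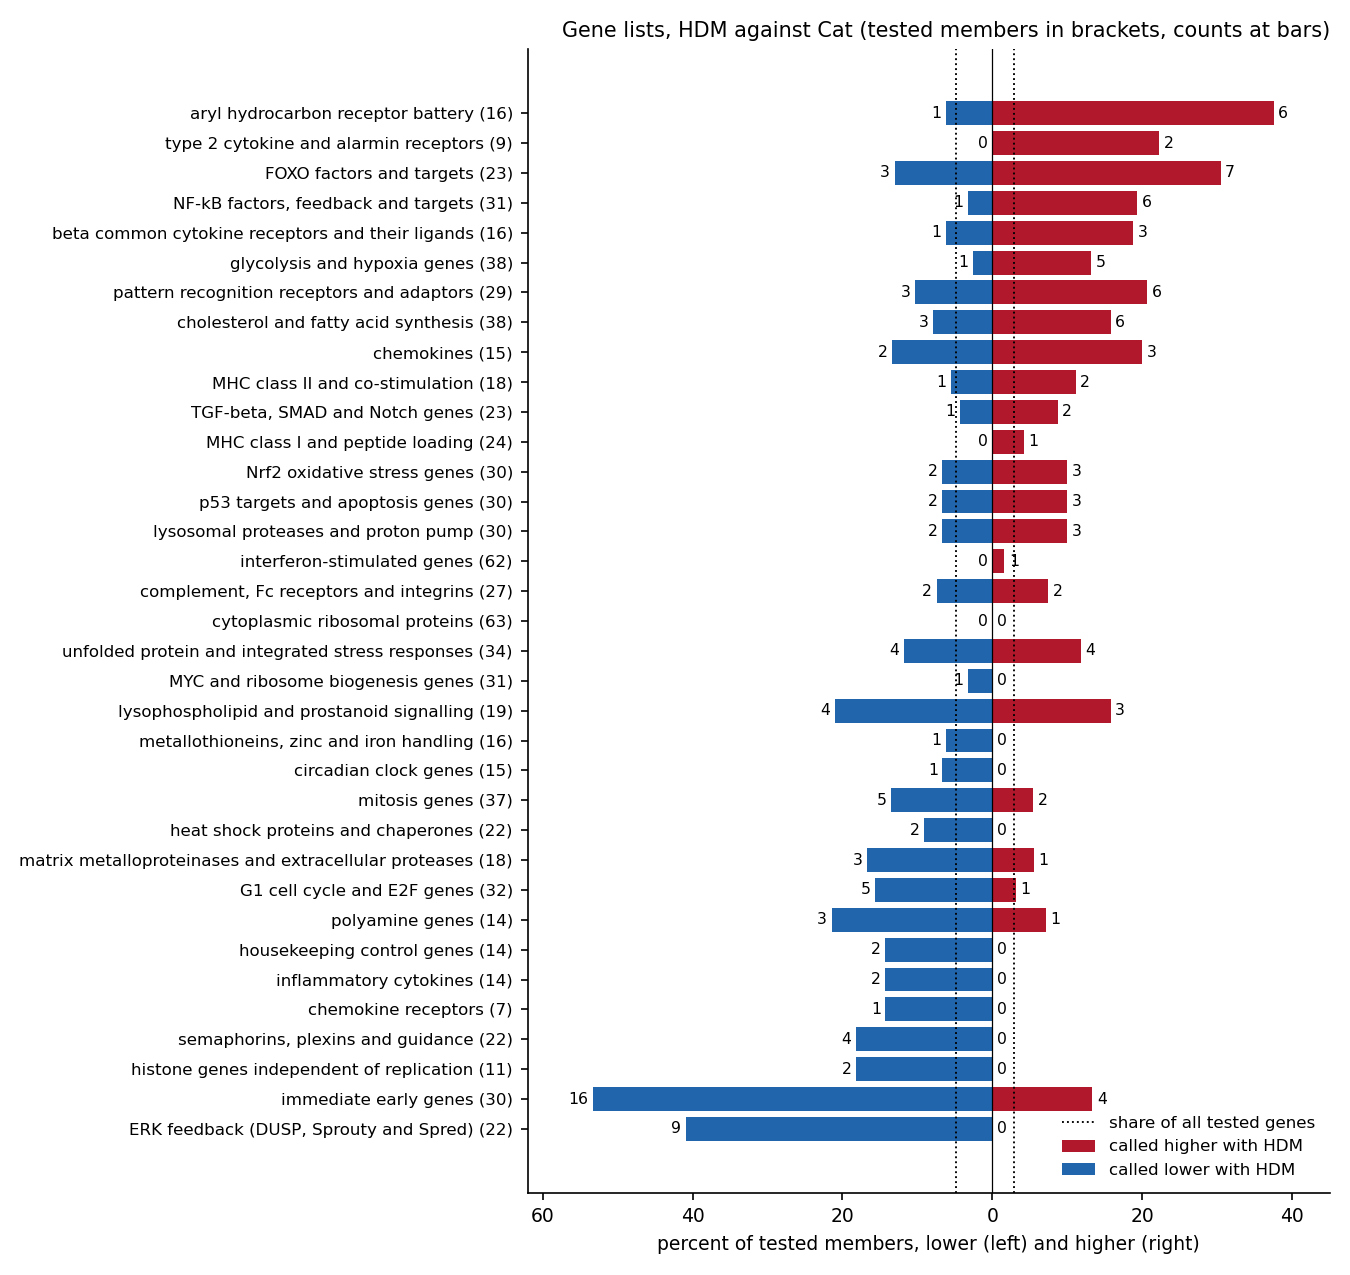
Share of tested members called higher (red, right) or lower (blue, left) with HDM against Cat for 35 gene lists, ordered by the difference of the shares, with counts at the bars and the number tested in brackets. Dotted lines mark the shares of all tested genes, 2.94% higher and 4.82% lower. The AhR battery leads the rises with 6 of 16, where Ugt1a6a, Ugt1a6b and Ugt1a7c, which share exons, count as separate members. The immediate early and ERK feedback lists lead the falls with 16 of 30 and 9 of 22.

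The Grass libraries, which enter no side of the contrast, sat differently for rises and falls. Positions were taken on the log2 scale between the HDM and Cat group means, and no test was made of them. Among the 38 genes at least 1.5-fold higher with HDM than with Cat, the Grass mean was closer to HDM in 10 and the untreated mean in 2. Among the 29 genes at least 1.5-fold lower, the Grass mean was closer to HDM in 24 and the untreated mean in 1. Over all calls, the Grass mean was closer to HDM in 187 of 337 genes that rose (55.5%) and in 486 of 552 that fell (88.0%). The untreated mean was closer to HDM in 86 of 337 and in 36 of 552. Atp6v0c-ps2 and Amd2, whose read assignment between copies is uncertain, are included in these counts. Atp6v0c-ps2 is among the 10 and among the 2 large rises closer to HDM. Put in genes, the large rises of Ahrr, Csf2rb, Cxcl2 and Spint1 set HDM apart from the Grass libraries too, whereas for Egr1, Fosb, Sema6d, Ccl3 and Plau the HDM and Grass libraries lay together below the Cat libraries.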

How the data were processed

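RNA of 8 DC2.4 cultures was sequenced as mRNA-enriched stranded libraries, 2 in each of 4 groups. Per the submitters' processing notes, Bowtie2 2.1.0, RSEM 1.2.15, edgeR and the mouse build mm9 were used, with no role or order given. Neither the annotation nor a strand setting is given in the sources used here, so sense and antisense reads at overlapping genes may be mixed.

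The deposited table is called raw counts, but per the values the deposited signal is read numbers multiplied by a step that is fixed within each library. After division by it 100% of values were whole within 1e-06, and the deposited columns sum to 975215 to 1047501. The recovered depth was 31.94 to 43.32 M reads a library (M, 1e6 reads). No length correction was made, so levels are compared within genes only. The authors' own tables of changed genes were not used here. Symbols turned into dates occurred in 27 rows, 14 of which passed the filter and were tested but left unnamed.

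Differences were tested with limma 3.58.1 in R 4.3.3 on log2(value + 0.1) with trend and robust settings, all 8 libraries together (4 residual degrees of freedom), and with Benjamini-Hochberg adjustment over 11455 genes. Called means an adjusted p below 0.05. Folds of low genes are understated by the pseudocount. On simulated data, with 50 genes changed at each fold, the fit recovered 84% at 1.25-fold, 92% at 1.5-fold, 100% at 2-fold and 100% at 4-fold. It called 9 of 11255 unchanged genes. These shares hold for the simulated data only. In the real libraries the chi-square per gene between replicates ran from 2.23 (Cat) to 4.77 (untreated). EdgeR's quasi-likelihood test on the recovered reads called 790 genes and DESeq2 509.

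Genes named are the top 12 calls by log2 change in either direction (mean value of the pair at least 1, groups not overlapping), the 3 lowest p-values of every list, and a fixed set. Other genes, such as list members with larger p, were named after their values were seen. The members and lists were chosen with earlier results of these data known. Alternatives covered the tool, the scaling, the pseudocount, the filter, the libraries in the fit, limma's settings, a replicate block and each library left out. The remaining fall in the protease list is not reported here.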

Additional observations from a re-analysis of the deposited data

How the results depend on the processing

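The 889 calls became 509 with DESeq2 and 238 with limma without its trend and robust settings (114 higher, 124 lower). Lower calls numbered 281 with DESeq2 and 328 with upper-quartile scaling, against 552. With a pseudocount of 1, 19 genes were at least 1.5-fold lower, against 29. With 1 library left out, calls ranged from 438 (without HDM 1) to 1278 (without untreated 1), higher ones from 164 to 483 and lower ones from 256 to 796. The cause was not tested. No called gene under the naming rule changed direction in any alternative run. Upper-quartile scaling moved the median log2 fold change of all genes to 0.017, against -0.01 as reported, and called 60.2% of its calls higher, against 37.9%. No source states that replicate numbers pair libraries, and the deviations of HDM and Cat libraries of the same number correlated at -0.08 over all tested genes and at -0.18 over genes with a mean of at least 5, while those of Grass and untreated libraries correlated at 0.13. With the replicate number as a block, 850 genes were called in the fit of all libraries and 935 in the fit of HDM and Cat alone. A crossed replicate pairing, chosen after seeing the data, gave 925 calls. Depth limits what can be said of genes below the filter, such as Il6, Il1b and Cyp1a1, and 2 libraries per group limit the precision of each SE.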

Other observations

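Genes of sterol and fatty acid handling had 6 of 38 tested members higher with HDM than with Cat and 3 lower, 23.7% called against 7.76% of all genes. Abcg1, a cholesterol exporter, had 62.0 and 60.4 with HDM and 51.5 and 50.6 with Cat (log2 0.26, SE 0.04) and was the one call in this list that remained whichever 1 library was left out. Notch1, a receptor for contact signals between cells, had 18.2 and 17.7 with HDM and 11.0 and 12.9 with Cat (log2 0.58, SE 0.08). In the lysosomal list the protease gene Ctsl rose by 0.14 (SE 0.02), and the proton pump subunits Atp6v1b2 (log2 -0.18, SE 0.03) and Atp6v0a1 (-0.16, SE 0.03) fell. The adhesion receptor Cd44 had 520.0 and 513 with HDM and 587 and 584 with Cat (log2 -0.18, SE 0.03), and the integrin gene Itgb7 rose by 0.17 (SE 0.03). The chaperone Dnajb4 had 56.8 and 54.9 with HDM and 77.3 and 78.7 with Cat (log2 -0.48, SE 0.04).

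Of 23 tested dendritic and myeloid markers 2 were higher and 2 lower, 17.4% called against 7.76% of all genes, with log2 fold changes between -0.35 and 0.40. Irf8, a factor for dendritic cell identity, had 42.0 and 41.2 with HDM and 52.8 and 53.6 with Cat (log2 -0.35, SE 0.04), and the macrophage marker Emr1 had 171 and 162 with HDM and 147 and 142 with Cat (log2 0.21, SE 0.03). Grass libraries had 41.9 and 41.2 for Irf8, next to those with HDM. The costimulatory gene Cd86 had 26.0 and 24.7 with HDM and 24.2 and 24.5 with Cat and was not called (limma adjusted p = 0.61). Ncf4, a subunit of the phagocyte oxidase named after its values were seen, had 62.7 and 63.3 with HDM and 40.3 and 39.6 with Cat (log2 0.66, SE 0.05).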
